A study of Mus musculus with 4 samples.

Results

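The collagen genes were taken as every gene in the deposited feature lists whose symbol is Col followed by digits, the letter a and digits. There were 44 such genes among 32285, and 28 of them had 10 or more UMIs (unique molecular identifiers, 1 for each captured transcript molecule) over the cells kept in both libraries. Of the others, 7 had 1 to 9 UMIs (Col10a1, Col11a1, Col12a1, Col13a1, Col17a1, Col25a1 and Col26a1) and 9 had none (Col2a1, Col6a4, Col6a5, Col9a1, Col9a2, Col19a1, Col22a1, Col24a1 and Col28a1). Col2a1 makes the main fibril of cartilage, and Col9a1 and Col9a2 make the type IX collagen that coats it. All 44 symbols matched the RefSeq gene table of GRCm38.p6, and members are described below by structural group, cell class and library.

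Collagens are proteins whose chains wind together into a triple helix. Fibrillar types I, III and V form the tension-bearing fibers of the heart's interstitium, type VI forms beaded filaments around cells, and type IV forms the sheet of the basement membrane beneath endothelium and around muscle cells. Smaller families sit on fibril surfaces (the FACIT collagens, such as XII and XIV), link basement membranes to the matrix (types XV and XVIII, the multiplexins), anchor epithelia (type VII), form short-chain networks (type VIII) or span the cell membrane (types XIII, XVII, XXIII and XXV). In the heart, fibroblasts are known as the main source of fibrillar collagen and endothelial cells as a source of type IV.

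Promoter sequence is shown for 3 genes that were found almost wholly in fibroblast-gated cells and that stand for the fibrillar and beaded filament groups. Each is the stretch of 250 bases before the annotated start in RefSeq (GRCm38.p6), 5′ to 3′ on the gene's strand. Capitals mark the CCAAT box, the TATAAA box and the GC box GGGCGG on either strand. The windows are chr6:4505368-4505617 (plus strand) for Col1a2, chr1:45311288-45311537 (plus strand) for Col3a1 and chr10:76726045-76726294 (minus strand) for Col6a1.
Col1a2: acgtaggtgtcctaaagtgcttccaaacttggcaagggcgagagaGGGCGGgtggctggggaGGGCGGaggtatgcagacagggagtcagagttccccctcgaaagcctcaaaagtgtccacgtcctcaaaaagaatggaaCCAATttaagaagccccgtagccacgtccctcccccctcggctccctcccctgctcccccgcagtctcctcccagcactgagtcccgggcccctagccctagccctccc
Col3a1: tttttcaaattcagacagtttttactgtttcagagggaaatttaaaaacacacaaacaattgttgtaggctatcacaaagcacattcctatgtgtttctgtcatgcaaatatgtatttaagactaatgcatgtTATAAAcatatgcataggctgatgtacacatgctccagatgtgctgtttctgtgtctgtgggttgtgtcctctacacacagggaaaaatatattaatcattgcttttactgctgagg
Col6a1: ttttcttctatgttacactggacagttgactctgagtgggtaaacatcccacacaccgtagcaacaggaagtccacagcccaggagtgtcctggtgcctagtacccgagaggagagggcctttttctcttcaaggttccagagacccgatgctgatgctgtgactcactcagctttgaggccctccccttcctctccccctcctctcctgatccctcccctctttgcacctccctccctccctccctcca

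The Col1a2 window held 1 CCAAT box and 2 GC boxes, the Col3a1 window held 1 TATAAA box, and the Col6a1 window held none of these letters. Among all 32851 promoter windows of this length, 33.8% held CCAAT, 12.4% held TATAAA and 32.7% held GGGCGG. Among the 38 windows of collagen genes, which cover 35 of the 44 genes, the shares were 34.2%, 13.2% and 57.9%. These are matches of letters, not binding sites.

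Col4a1 and Col4a2, the chains that are joined in the common form of type IV collagen, lie head to head on chromosome 8 and are transcribed away from each other. The annotated starts used for their promoter windows overlap, so that the 22 bases at chr8:11312805-11312826 lie after both starts on opposite strands. By the RefSeq gene bounds the genes overlap by 85 bases, which include this stretch. The stretch is shown on the plus strand because both chains are compared below as a pair, with a GC box in capitals.
Col4a1 and Col4a2 shared start: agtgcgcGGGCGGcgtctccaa

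The study measured CITE-seq, in which gene transcripts and antibody tags are read from the same cell, in heart tissue without atria of C57BL6J mice. The isotype library came from 4 pooled hearts of mice given a rat IgG antibody, and the anti-CD40 library from 4 pooled hearts of mice given an agonist antibody against CD40, a receptor of antigen-presenting cells. Mouse age, sex, dose and time of treatment are not given in the labels used here. With 1 pooled library per treatment, no test between treatments was possible, and every interval below is a 95% counting interval that leaves out variation between mice and preparations. The sample titles describe cells sorted as CD45+ and DAPI-, a leukocyte gate, whereas the series design describes DRAQ5+ and DAPI- cells, a gate on nucleated live cells. Under the first gate fibroblasts and endothelial cells would be there only as carry-over, and the gate can set their share in either library.

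After filtering, 2558 isotype and 4278 anti-CD40 cells remained, with a median of 5446 and 8284.5 UMIs per cell. Cells were assigned to classes by the number of distinct marker genes detected, with no collagen gene among the markers. The macrophage gate used a list for macrophages or monocytes, which includes Ly6c2, Ccr2, Cx3cr1 and Ace, so its cells can be either. The fibroblast gate held 38 isotype cells (1.49% of kept cells, 1.05 to 2.03) and 71 anti-CD40 cells (1.66%, 1.30 to 2.09). The endothelial gate held 48 and 112 cells, the macrophage gate 716 and 2237, and the mural gate (pericytes and smooth muscle) 1 in each library, too few for a value. A median of 13 (isotype) and 12 (anti-CD40) of 14 fibroblast markers were found per fibroblast-gated cell, 13 and 12 of 15 endothelial markers per endothelial-gated cell, and 11 and 11 of 16 macrophage markers per macrophage-gated cell. The tag for CD31, an endothelial surface protein, had a median of 835.5 and 1124 UMIs in endothelial-gated cells and 2 and 2 in fibroblast-gated cells. The tag for CD140a, the protein of the fibroblast marker Pdgfra, set the gates apart far less. Its median was 6.5 and 16 UMIs in fibroblast-gated and 4 and 4 in endothelial-gated cells. Schwann cell and mesothelial markers summed to at most 2 UMIs in the fibroblast gate. No doublet caller was run, and 546 isotype and 570 anti-CD40 cells passed more than 1 leukocyte gate, with medians of 16399.5 and 18640 UMIs. The libraries shared 13 barcodes, of which 6 were kept and 0 were in a stromal gate.

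Collagen transcripts were concentrated in very few cells. Fibroblast-gated cells held 71.8% of all 7779 collagen UMIs of the isotype library and 63.5% of the 7436 of the anti-CD40 library. Endothelial-gated cells held 8.02% and 16.6%, macrophage-gated cells 7.06% and 13.1%, and cells in several leukocyte gates 10.8% and 5.03%. As a share of all transcripts, collagens made up 12210.1 CPM (counts per 1000000 UMIs of the class; interval 11891.9 to 12534.6) in isotype fibroblast-gated cells, 1941 CPM (1792 to 2099) in endothelial-gated cells and 88.97 CPM (81.7 to 96.7) in macrophage-gated cells. Neutrophil-gated (22.1 CPM), B cell-gated (22.1 CPM) and T cell-gated (4.69 CPM) isotype cells were lower still, with 9, 39 and 1 collagen UMIs. The barcodes that the filter left out held 511 isotype and 389 anti-CD40 collagen UMIs, at 122.8 and 62.2 CPM.

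**Figure D1:**
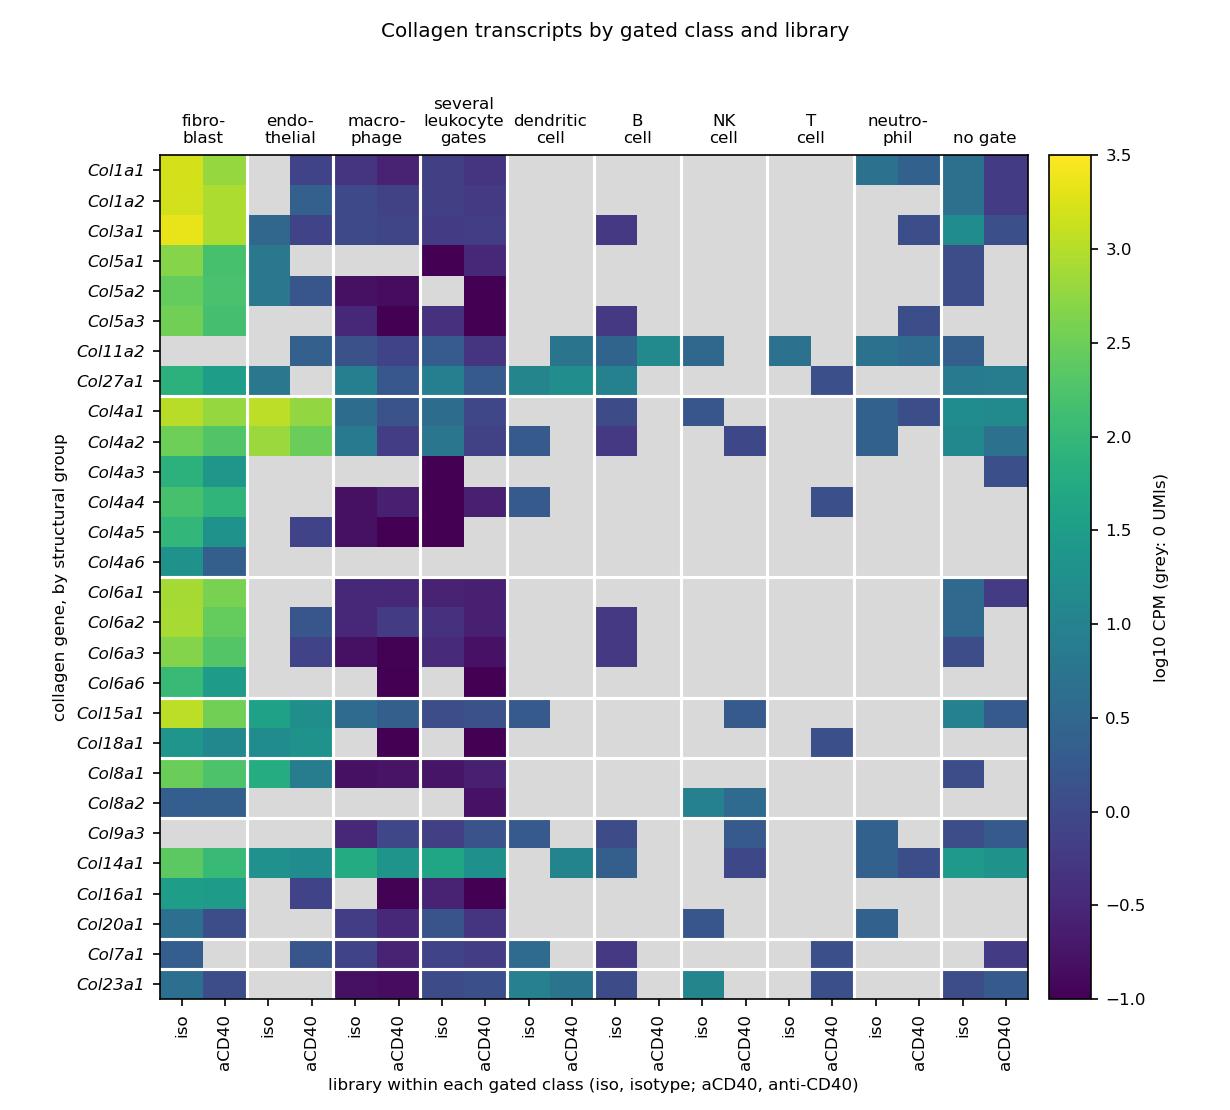
CPM of the 28 collagen genes with 10 or more UMIs (rows, by structural group) in each gated class and library (columns), as log10 CPM with grey for 0 UMIs. Most rows are bright in the fibroblast columns alone, Col4a1 and Col4a2 are also bright in the endothelial columns, and Col14a1 extends into the macrophage columns, at 58.2 and 21.6 CPM.

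Between classes, the fibroblast gate stood above the macrophage gate by 10-fold or more for 19 of 21 collagen genes with enough UMIs in the isotype library, where 7.04% of all genes did so. In the anti-CD40 library it did so for 20 of 24 (7.46% of all genes), and 0 were lower by as much in either library (2.87% and 0.0667% of all genes). Those under 10-fold in the isotype library were Col14a1 (4.02-fold, 3.21 to 5.0) and Col27a1 (8.99-fold, 5.73 to 14). Against the endothelial gate, 15 of 21 isotype and 16 of 21 anti-CD40 collagen genes were higher in the fibroblast gate by 10-fold or more, against 3.06% and 3.26% of all genes, and 0 were lower by that much (3.62% and 1.81% of all genes). The endothelial gate stood above the macrophage gate by 10-fold or more for 4 of 6 and 4 of 13 collagen genes, against 4.72% and 5.49% of all genes, and 0 were lower by as much (0.411% and 0.0149%).

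The fibrillar collagens made up 54.1% of the collagen UMIs of isotype and 53.4% of those of anti-CD40 fibroblast-gated cells. Col3a1, the chain of type III collagen, was the most abundant, at 2212 CPM (2078 to 2353) in the isotype and 866.2 CPM (805.8 to 929.9) in the anti-CD40 library. Col1a1 and Col1a2, the chains of type I collagen, had 1620.0 and 1587 CPM in the isotype library. In the anti-CD40 library they had 608.5 and 892.3 CPM. Because 5′ chemistry counts each transcript molecule once, these counts do not scale with gene length. The type I pair thus stood near even in the isotype library, at 1.02 Col1a1 UMIs per Col1a2 UMI (0.92 to 1.13), and below even in the anti-CD40 library, at 0.68 (0.61 to 0.76). Both chains were found together in 32 of 38 isotype and 65 of 71 anti-CD40 fibroblast-gated cells, and no cell had Col1a1 without Col1a2. The count of Col3a1 per Col1a1, by contrast, had overlapping intervals in the libraries, at 1.37 (1.24 to 1.5) and 1.42 (1.27 to 1.59).

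Type V collagen, which is built into type I fibrils and limits their width, was found through all 3 of its chains. Col5a1 had 489.7 CPM in isotype and 152.1 CPM in anti-CD40 fibroblast-gated cells, Col5a2 had 273.3 and 160.1 CPM, and Col5a3 had 345.4 and 151.0 CPM. The balance of Col5a1 and Col5a2 differed with the library, from 1.79 Col5a1 UMIs per Col5a2 UMI (1.43 to 2.25) in the isotype to 0.95 (0.74 to 1.21) in the anti-CD40 library. Col27a1, a fibrillar collagen known from cartilage, was the sparse member of the group at 78.7 and 31.8 CPM. Col11a2 had 0 UMIs in the fibroblast gate of either library, although 43 isotype and 37 anti-CD40 UMIs were found over all kept cells. Its UMIs lay mostly in cells of several leukocyte gates (53.5% in the isotype library) and macrophage-gated cells (62.2% in the anti-CD40 library), never above 2.83 CPM where 5 or more were counted in a gate.

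Of the basement membrane chains, Col4a1 was as abundant in fibroblast-gated as in endothelial-gated cells, at 1041 CPM (949 to 1138) against 1114 CPM (1001 to 1235) in the isotype library. In the anti-CD40 library the values were 608.5 CPM (558 to 662) and 593.9 CPM (552 to 638). Col4a2 leaned to the endothelial gate, at 668.7 against 314.8 CPM in the isotype library (2.12-fold higher) and 314.1 against 186.2 CPM in the anti-CD40 library (1.69-fold higher). Between the fibroblast and endothelial gates the chain ratio therefore differed more than it did between the libraries within either gate. Fibroblast-gated cells held 3.31 (2.74 to 4.01) and 3.27 (2.74 to 3.92) Col4a1 UMIs per Col4a2 UMI, and endothelial-gated cells held 1.67 (1.40 to 1.98) and 1.89 (1.67 to 2.14). Reads from the overlapping starts on opposite strands could bear on this pair, and whether counting used strand is not given in the sources used here.

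Of the UMIs of each minor type IV chain, 85.7% or more lay in the fibroblast gate in both libraries. Col4a3 and Col4a4, also arranged head to head, had 76.5 and 157.4 CPM in isotype and 23.8 and 86.3 CPM in anti-CD40 fibroblast-gated cells, and neither had a UMI in the endothelial gate. Col4a5 had 94.0 and 20.4 CPM, with 1 UMI in anti-CD40 endothelial-gated cells. Col4a6 had 9 isotype and 2 anti-CD40 UMIs, all in fibroblast-gated cells. Together the basement membrane chains made up 13.9% and 17.3% of the fibroblast-gated collagen UMIs and 91.8% and 92.4% of the endothelial-gated ones.

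Type VI collagen is assembled from the Col6a1 and Col6a2 chains and a longer one such as Col6a3. In fibroblast-gated cells Col6a1 had 767.4 CPM (isotype) and 389.4 CPM (anti-CD40), Col6a2 had 815.5 and 270.2 CPM, Col6a3 had 456.9 and 199.8 CPM, and Col6a6 had 107.1 and 29.5 CPM. The Col6a1 to Col6a2 count was 0.94 (0.81 to 1.09) in the isotype and 1.44 (1.22 to 1.71) in the anti-CD40 library. At least 91.2% of the UMIs of each of these 4 genes lay in the fibroblast gate in both libraries.

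Among the smaller families, Col15a1, a multiplexin of the zone between basement membrane and interstitium, reached 1124 CPM (1029 to 1225) in isotype and 351.9 CPM (313.8 to 393.4) in anti-CD40 fibroblast-gated cells. Col18a1, its relative and the source of endostatin, was sparse, at 21.9 and 12.5 CPM in the fibroblast gate and 15.6 and 19.9 CPM in the endothelial gate, where 1 anti-CD40 cell gave 12 of 25 UMIs. Col8a1, a short-chain collagen of vessels, had 308.3 and 173.7 CPM in the fibroblast gate. In the endothelial gate it had 20 isotype UMIs in 9 cells and 10 anti-CD40 UMIs in 3 cells, which is 62.2 and 7.97 CPM. Col14a1, a FACIT collagen on the fibril surface, had 233.9 and 107.8 CPM in fibroblast-gated cells, and Col16a1 had 32.8 and 29.5 CPM.

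**Figure D2:**
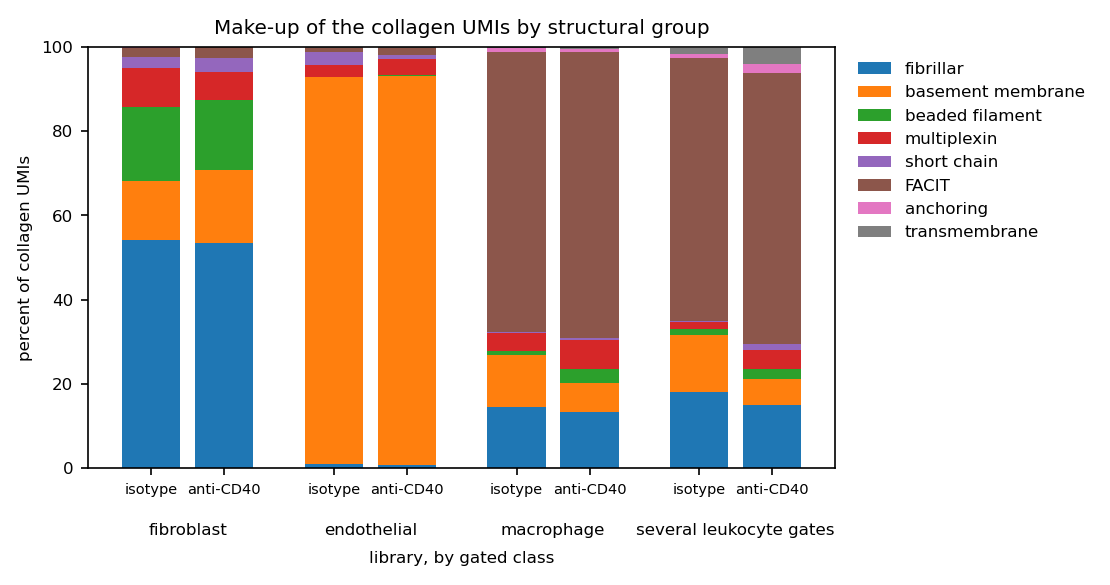
Share of collagen UMIs in each structural group (stacked bars, percent) for 4 classes in both libraries. Fibrillar chains made up 54.1% and 53.4% in the fibroblast gate, basement membrane chains 91.8% and 92.4% in the endothelial gate, and FACIT chains 66.5% and 67.7% in the macrophage gate.

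Cells of 1 gate varied widely. Collagens made up 0.346% to 2.51% of a cell's UMIs in isotype fibroblast-gated cells, with a median of 1.08%, and 0% to 1.70% in anti-CD40 ones, with a median of 0.589%. The ranges overlapped over most of their length, and the middle 50% of cells ran from 0.819% to 1.35% and from 0.401% to 0.867%. A median of 16.5 and 14 different collagen genes was found per fibroblast-gated cell. Endothelial-gated cells had medians of 0.190% and 0.113% and of 2 different collagen genes. The cell with most collagen UMIs gave 8.81% and 6.16% of the fibroblast-gated collagen UMIs, 492 and 291 UMIs.

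**Figure D3:**
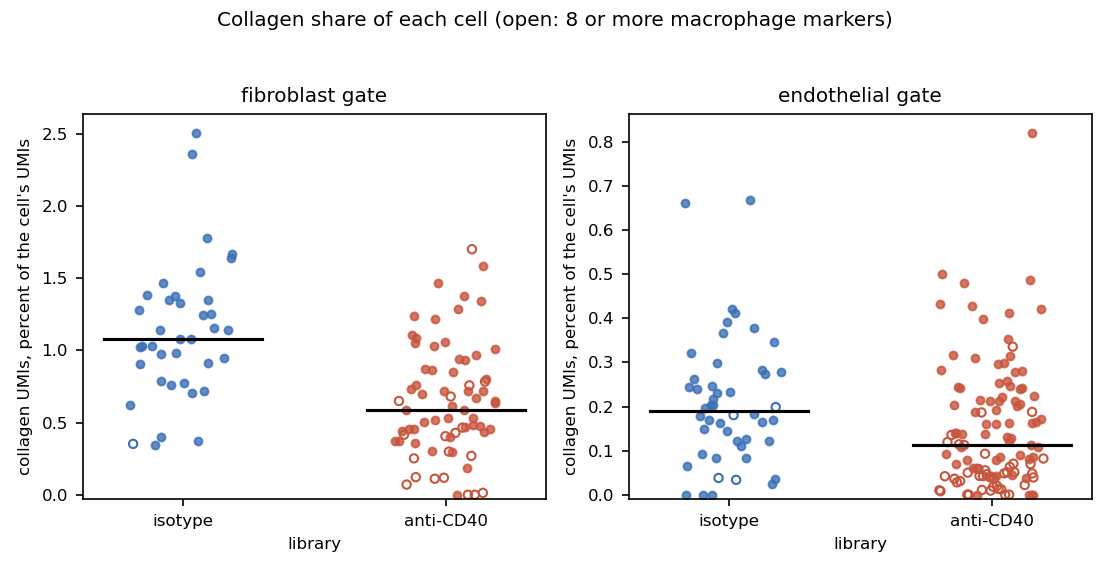
Collagen UMIs as a percentage of each cell's UMIs (y axis) in fibroblast-gated (left) and endothelial-gated cells (right) of both libraries, with 1 point per cell and a black line at the median. Open points are cells with 8 or more macrophage markers, 1 of 38 isotype and 19 of 71 anti-CD40 fibroblast-gated cells, and many of them lie low in the anti-CD40 column.

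Comparing the libraries within the fibroblast gate, collagen as a whole was 5364 CPM (5212 to 5519) in the anti-CD40 library, 2.28-fold lower than in the isotype library (2.19 to 2.37). Of the 22 collagen genes with 10 or more UMIs in the gate, 21 were lower by 1.5-fold or more and 0 were higher, whereas 25.1% of all 9842 genes counted in the gate were lower and 20.9% higher by as much. The median fold was 2.29-fold lower for the collagen genes and 1.07-fold lower for all genes. Col16a1 (15 and 26 UMIs) was the gene under that fold, 1.11-fold lower with an interval that spans 1. Col18a1 (10 and 11 UMIs) was 1.75-fold lower with an interval that also spans 1, and Col4a6 had 9 and 2 UMIs. By structural group, the multiplexins were 3.14-fold lower, beaded filament chains 2.42-fold, fibrillar chains 2.31-fold, FACIT chains 1.99-fold, basement membrane chains 1.84-fold and short chains 1.76-fold. Of the abundant chains, Col15a1 (3.19-fold lower, 2.77 to 3.69), Col5a1 (3.22-fold, 2.59 to 4.02) and Col6a2 (3.02-fold, 2.56 to 3.57) had the larger folds. Col1a1 was 2.66-fold lower (2.38 to 2.98), Col3a1 2.55-fold (2.32 to 2.81), Col1a2 1.78-fold (1.61 to 1.97), Col4a1 1.71-fold (1.51 to 1.94) and Col5a2 1.71-fold (1.33 to 2.19).

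Other transcripts moved with this difference. Of the 14 fibroblast markers, 13 were lower in anti-CD40 fibroblast-gated cells by 1.5-fold or more, with a median of 2.24-fold, and their sum was 66553 CPM in the isotype and 33052 CPM in the anti-CD40 library. The 16 macrophage markers summed to 1718 and 9285 CPM, with 15 and 16 of them present, and the 8 neutrophil markers to 408.8 and 4659 CPM. The CD45 tag had a median of 2 and 7 UMIs per cell. Counted per fibroblast marker UMI rather than by CPM, collagen as a whole was 1.13-fold lower in the anti-CD40 library, 6 of 22 collagen genes were lower by 1.5-fold or more, and 1, Col16a1, was higher by as much. Without the cells that had 8 or more macrophage markers, the gate held 37 and 52 cells, collagen was 1.66-fold lower (12682 and 7636 CPM), and 12 of 22 genes were lower by 1.5-fold or more. For the count per marker UMI and for the smaller gate no share of all genes is given, so the shares above do not apply to them. The part of the marker transcripts in the collagen difference was not tested further.

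The members did not move evenly. Scaling by marker UMIs shifts all genes of the gate alike, and the share of all genes above 0 under it is not given. Counted per fibroblast marker UMI, Col5a1, Col15a1 and Col6a2 kept log2 ratios of -0.68, -0.67 and -0.58, and Col1a1 and Col3a1 of -0.40 and -0.34. Col1a2, Col4a1, Col4a2 and Col5a2 instead had ratios above 0, at 0.18, 0.24, 0.25 and 0.24, as had Col4a4, Col6a1 and Col8a1 (0.14, 0.031 and 0.18) and the sparse Col16a1 and Col18a1 (0.86 and 0.20), so that 9 of 22 lay above 0. The uneven pairs Col1a1 and Col1a2, Col5a1 and Col5a2, and Col6a1 and Col6a2 are those whose chain ratios, which need no scaling between libraries, are given above.

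**Figure D4:**
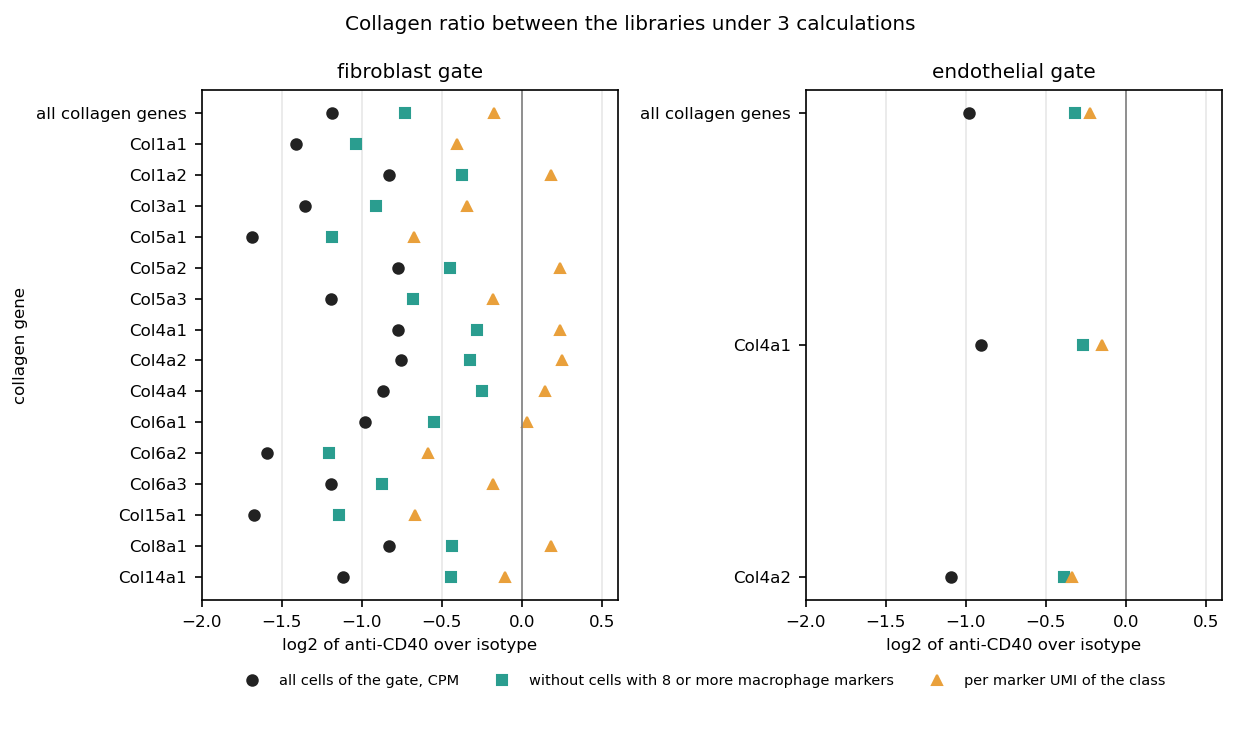
Log2 ratio of anti-CD40 over isotype (x axis) for the collagen genes with 50 or more UMIs in a library, in the fibroblast and endothelial gates. Black circles use all cells of the gate and CPM, green squares leave out cells with 8 or more macrophage markers, and yellow triangles count collagen per marker UMI of the class; for all collagen genes in the fibroblast gate these are -1.19, -0.73 and -0.18.

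In the endothelial gate collagen was 983.7 CPM (929.6 to 1040) in the anti-CD40 library, 1.97-fold lower than in the isotype library (1.79 to 2.17). Of 6 collagen genes with 10 or more UMIs, 4 were lower by 1.5-fold or more (26.4% of all 9908 genes counted) and 0 were higher (19.5% of all genes). Col4a1 was 1.87-fold lower and Col4a2 2.13-fold lower. Col8a1 was 7.80-fold lower (3.49 to 18.7) on 20 and 10 UMIs, of which 1 isotype cell gave 9 and 1 anti-CD40 cell gave 6. Col15a1 was 2.13-fold lower on 12 and 22 UMIs with an interval that spans 1 (0.96 to 4.49). Col14a1 and Col18a1 differed by less than 1.5-fold, also with intervals that span 1. Here too the class markers were lower, 12 of 15 by 1.5-fold or more with a median of 1.98-fold, and the macrophage markers summed to 7605 and 14592 CPM. The CD45 tag had a median of 3 and 21 UMIs per cell, and 4 of 48 and 42 of 112 cells had 8 or more macrophage markers. Without those cells collagen was 1.25-fold lower (2439 and 1952 CPM), and per endothelial marker UMI it was 1.17-fold lower.

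**Figure D5:**
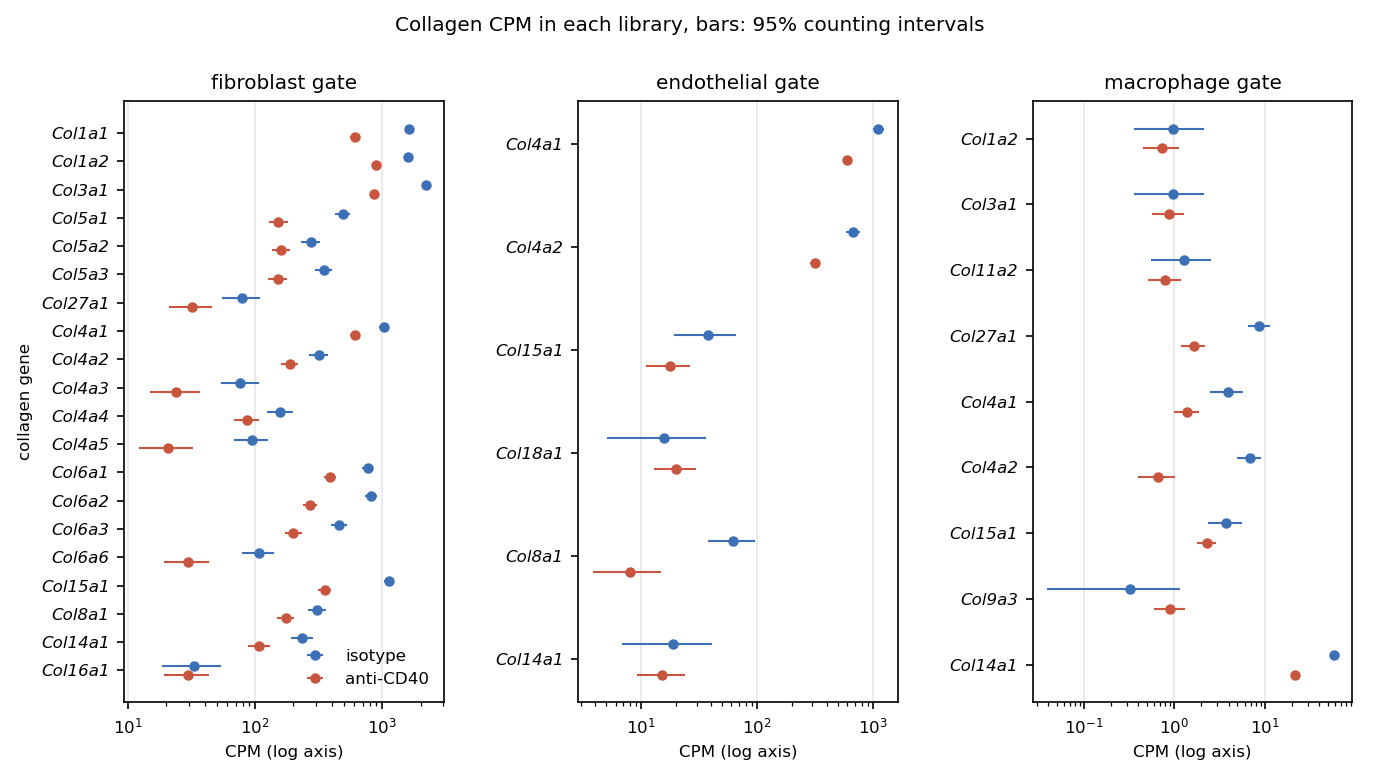
CPM (log axis) of collagen genes in the fibroblast, endothelial and macrophage gates, with points for the isotype (blue) and anti-CD40 (red) libraries and bars for 95% counting intervals. In the fibroblast gate the red point lies left of the blue point for each gene shown, and the bars overlap widely for Col16a1, at 32.8 and 29.5 CPM. Genes with 15 or more UMIs in a library are shown (20 or more for the macrophage gate).

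Macrophage-gated cells carried a collagen profile unlike that of fibroblasts. Col14a1 was the leading gene, at 58.2 CPM (52.3 to 64.5) from 359 UMIs in 200 of 716 isotype cells. In the anti-CD40 library 388 of 2237 cells held 621 UMIs, or 21.6 CPM (19.9 to 23.4). No other collagen gene passed 8.75 CPM there. For every Col1a1 UMI there were 120 Col14a1 UMIs (40.6 to 583) in the isotype and 77.6 (39.2 to 181) in the anti-CD40 macrophage gate, against 0.144 (0.117 to 0.177) and 0.177 (0.141 to 0.221) in the fibroblast gate of the same libraries. The Col14a1 counts of the macrophage gate thus stood in another proportion to Col1a1 than those of the fibroblast gate. After thinning each cell to 1000 UMIs, a Col14a1 UMI was found in 7.20% of isotype (5.41 to 9.36) and 2.47% of anti-CD40 macrophage-gated cells (1.86 to 3.20). Among isotype B cell-gated cells it was found in 2 of 380 (0.526%). Neutrophil-gated cells had it in 0 of 123 (isotype) and 0 of 251 (anti-CD40). At that depth this allows up to 2.44% and 1.2% of neutrophil-gated cells with a Col14a1 UMI (3 counts of the total). Median depths before thinning were 7658 and 11043 UMIs for the macrophage gate and 4353, 3046 and 2848 UMIs for those B cell-gated and neutrophil-gated cells. The NK cell gate had 0 of 123 and 0 of 137 and the T cell gate 0 of 31 and 0 of 125. By the same limit these allow up to 2.44%, 2.19%, 9.68% and 2.4%. Endothelial-gated cells had 18.7 CPM of Col14a1 (6.85 to 40.6) in the isotype and 15.1 CPM (9.12 to 23.7) in the anti-CD40 library. The anti-CD40 interval overlaps that of the macrophage gate.

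Few cells with Col14a1 carried the abundant fibrillar chains. Among macrophage-gated cells with a Col14a1 UMI, 6 of 200 (3%) in the isotype and 6 of 388 (1.55%) in the anti-CD40 library also had Col1a1, Col1a2 or Col3a1. Among those without, the shares were 6 of 516 (1.16%) and 36 of 1849 (1.95%), so that the order differed between the libraries. Dcn, the decorin gene and a leading fibroblast marker, was found in 5.0% and 9.28% of the cells with Col14a1 and in 2.91% and 8.82% of those without. Split by marker genes, macrophage-gated cells with Timd4, Lyve1 or Folr2 and no Ccr2 UMI had 63.4 CPM of Col14a1 in the isotype and 30.3 CPM in the anti-CD40 library. Cells with Ccr2, a receptor of monocyte-derived macrophages, and none of those 3 genes had 37.8 and 10.1 CPM, and cells with neither had 105.5 and 63.6 CPM. The anti-CD40 value lay below the isotype value, with intervals apart, in each of these subsets. The cells with both kinds of marker had 20.5 CPM (11.5 to 33.8) and 15.4 CPM (12.7 to 18.5), with overlapping intervals.

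Between the libraries, macrophage-gated collagen was 2.63-fold lower (2.36 to 2.92) with anti-CD40 (88.97 and 33.9 CPM), and Col14a1 alone 2.69-fold lower (2.36 to 3.07). Of 14 collagen genes with 10 or more UMIs in the gate, 9 were lower by 1.5-fold or more, against 28.0% of all 13408 genes counted, and 2 were higher, against 11.7%. Of the 9, only Col4a1, Col4a2, Col14a1 and Col27a1 had intervals that leave out 1. Col7a1, the chain of the anchoring fibrils, was among the rest at 5 and 8 UMIs, as was the FACIT gene Col20a1 at 4 and 9 UMIs. Col27a1 was 5.35-fold lower (3.55 to 8.09), at 54 UMIs in 47 of 716 cells and 47 UMIs in 39 of 2237 cells. Col4a2 was 10.3-fold lower (5.86 to 18.7), at 42 and 19 UMIs, and Col4a1 2.79-fold lower, at 24 and 40 UMIs. The ratio of Col4a1 to Col4a2 was 0.571 (0.331 to 0.966) in isotype macrophage-gated cells, below that of either stromal gate, and 2.11 (1.19 to 3.85) in anti-CD40 ones. Both chains were found together in 3 of 716 and 0 of 2237 macrophage-gated cells, against 31 of 48 and 80 of 112 endothelial-gated cells. The 2 genes with higher CPM, Col9a3 (2 and 26 UMIs) and Col6a2 (2 and 18 UMIs), had intervals that span 1. Col9a3 overlaps the gene Tcfl5, so its reads are uncertain. The macrophage markers summed to 29712 and 27210 CPM, and per macrophage marker UMI collagen was 2.41-fold lower. The median gene with 50 or more UMIs in this gate was shifted by -0.19 on the log2 scale, and relative to that shift collagen was 2.31-fold lower.

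The macrophage-gated cells of the 2 libraries lay largely in different clusters. Clusters were made from all kept cells without collagen genes, and 507 of the 716 isotype but 23 of the 2237 anti-CD40 macrophage-gated cells lay in a cluster led by Fcrls, Ccl24 and Cd163. A cluster led by Ass1, Ly6i and Mmp14 held 25 isotype and 767 anti-CD40 cells of the gate, and one led by Ccl8, C4b and Gbp2b held 1 and 523. Within the Fcrls cluster collagen was 116.3 CPM (106 to 127.3) in isotype and 115.0 CPM (67.0 to 184.1) in anti-CD40 cells, with 470 and 17 UMIs and overlapping intervals, and Col14a1 was 80.4 and 94.7 CPM. Anti-CD40 cells of the Ass1 and Ccl8 clusters had 17.0 CPM (14.8 to 19.5) and 39.6 CPM (35.0 to 44.7) of collagen. A cluster led by Chil3, Fn1 and Plac8 held 68 and 55 cells of the gate, with 14 and 5 collagen UMIs (18.4 and 6.24 CPM) and overlapping intervals. A cluster led by Top2a, Cenpf and Mki67 held 12 isotype and 209 anti-CD40 cells of the gate, with 22 and 139 collagen UMIs. Its collagen was 129.4 CPM (81.1 to 195.9) and 36.0 CPM (30.3 to 42.5), with intervals apart. The lower collagen of the whole gate and its other mix of clusters cannot be told apart here.

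In cells that passed several leukocyte gates, Col14a1 again led, with 495 isotype and 217 anti-CD40 UMIs (43.7 and 18.0 CPM). Of 13 collagen genes with enough UMIs there, 6 were lower by 1.5-fold or more with anti-CD40 (27.3% of all genes) and 1 was higher (13.5% of all genes). Col27a1 was 4.64-fold lower (2.93 to 7.65) and Col4a2 7.71-fold lower (3.82 to 17.6), both lower, as in the macrophage gate. Macrophage markers were present in nearly all of these cells, with 520 of 546 and 553 of 570 passing the macrophage gate too.

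The remaining leukocyte gates held few collagen UMIs, and those few fell on different genes. In isotype B cell-gated cells Col27a1 had 17 of the 39 collagen UMIs, in 14 of 401 cells (9.63 CPM, 5.61 to 15.4). No Col27a1 UMI was found in NK cell-gated cells of either library, or in neutrophil-gated ones. In the isotype library the intervals of these zeros reach 5.90 and 9.05 CPM, so they overlap that of the B cell gate. In isotype dendritic cell-gated cells Col27a1 (6 UMIs) and Col23a1 (5 UMIs), a transmembrane collagen, gave 11 of 17. In isotype NK cell-gated cells Col23a1 (7 UMIs in 4 cells) and Col8a2 (6 UMIs in 6 cells) gave 13 of 18. The anti-CD40 library had 13 B cell-gated and 12 dendritic cell-gated cells, too few to show whether these differed. Col8a2, a short-chain relative of Col8a1, was the one collagen gene with 10 UMIs in the NK cell gate, 2.55-fold lower with anti-CD40 (0.61 to 12.3), where 27.8% of genes were lower and 15.9% higher by 1.5-fold or more. In the neutrophil and T cell gates no collagen gene reached 10 UMIs over both libraries.

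Genes that make and handle collagen were taken from 6 lists, chosen with earlier results of these data known. In the fibroblast gate 9 of 19 counted enzymes and chaperones were lower by 1.5-fold or more with anti-CD40 and 0 were higher, against the 25.1% and 20.9% of all genes given above. Serpinh1, the collagen chaperone HSP47, was 1.87-fold lower (878.9 and 468.9 CPM) and P4ha2, a prolyl hydroxylase subunit, 2.46-fold lower. The general secretory chaperones Ppib (607.8 and 579.0 CPM) and P4hb (242.7 and 220.2 CPM) and the prolyl hydroxylase P4ha1 (170.5 and 139.6 CPM) differed by less than 1.5-fold. Of the processing and crosslinking genes 6 of 10 were lower and 1, Lox (2 and 13 UMIs), was higher. Bmp1, which removes the C-terminal propeptide, was 3.49-fold lower and its enhancer Pcolce2 3.08-fold lower. Pxdn, which crosslinks type IV collagen, was 2.92-fold lower, Loxl1 2.32-fold, Adamts2 2.22-fold and Loxl2 2.14-fold, while Pcolce (747.7 and 501.8 CPM) was just inside 1.5-fold.

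Of the basement membrane partners, 9 of 9 were lower in the fibroblast gate (25.1% of all genes) and 8 of 9 in the endothelial gate (26.4% of all genes), Lamb1 being under 1.5-fold there. The class markers were lower too, 13 of 14 and 12 of 15 of them. The laminin chains Lamb1 and Lamc1 were 2.87-fold and 2.47-fold lower in the fibroblast gate, and the nidogen Nid1 and perlecan (Hspg2) 2.04-fold and 2.16-fold lower. Lama2 and Lama4 were 2.13-fold and 2.04-fold lower there, and Nid2 2.21-fold. In the endothelial gate Nid1 was 3.46-fold lower, Lamc1 3.31-fold, Hspg2 2.48-fold, Lamb2 2.46-fold and Lama4 2.43-fold. Serpinh1 (2.59-fold) and Pxdn (4.32-fold) were lower in the endothelial gate as well, as was Crtap (3.49-fold), a partner of prolyl 3-hydroxylation.

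Of the 8 counted fibril partners 7 were lower in the fibroblast gate (25.1% of all genes) and 0 higher (20.9%). Lum and Dcn on this list are also among the fibroblast markers used for the gate. Fn1 was 2.74-fold lower, Lum 2.48-fold, Tnxb 2.27-fold, Sparc 1.94-fold (2838 and 1463 CPM) and Bgn 1.52-fold, while Dcn was 1.31-fold lower (15927 and 12181 CPM). In the endothelial gate Sparc was 2.78-fold and Bgn 2.60-fold lower, and Dcn had 2 and 28 UMIs. The receptor list split against the same shares of all genes: 4 of 9 were lower, among them the collagen receptor kinase Ddr2 (2.75-fold) and the collagen uptake receptor Mrc2 (2.58-fold), and 3 were higher. Those higher were Itga1 (11 and 34 UMIs), Lair1 and Mrc1, and Lair1 and Mrc1 are known from leukocytes. They stood 11.8-fold (5 and 114 UMIs) and 15.8-fold (3 and 91 UMIs) higher, beside the macrophage markers given above, of which Mrc1 is a member. Lair1 was 5.22-fold higher in the endothelial gate, where Itga1 (441.7 and 515.8 CPM), Itgb1 and Mrc1 differed by less than 1.5-fold.

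Genes linked to fibroblast activation gave 4 of 9 lower and 3 higher in the fibroblast gate, where 25.1% of all genes were lower and 20.9% higher. Tgfb2 (2.30-fold) and Tgfb3 (3.56-fold) were lower. Postn (13 and 10 UMIs) and Fap (11 and 13 UMIs) were counted as lower on few UMIs, and no interval is given for them. Cilp was 5.02-fold higher (2.17 to 14.2), Timp1 2.65-fold higher (1.63 to 4.52) and Tgfb1 1.96-fold higher. The macrophage markers of this gate also summed higher, at 1718 and 9285 CPM, and a part of leukocyte transcripts in these values was not tested. Ccn2 (233.9 and 218.0 CPM) and Meox1 (89.6 and 69.3 CPM) differed by less than 1.5-fold.

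Detection followed the same order of classes. After thinning to 1000 UMIs, any collagen UMI was found in 32 of 32 isotype (100%, 89.1 to 100) and 64 of 71 anti-CD40 (90.1%, 80.7 to 95.9) fibroblast-gated cells. In endothelial-gated cells it was 78.0% (62.4 to 89.4) of 41 and 60.4% (50.4 to 69.7) of 106, and in macrophage-gated cells 10.5% (8.30 to 12.9) of 708 and 3.86% (3.10 to 4.75) of 2228. Without thinning the macrophage shares were 39.5% and 26.4%. Col1a1, Col1a2 or Col3a1 was found in 0 of 41 and 0 of 106 thinned endothelial-gated cells, which at that depth allows up to 7.32% and 2.83% of cells with such a UMI (3 counts of the total), and in 0.141% and 0.135% of thinned macrophage-gated cells. The unthinned shares of these 3 fibrillar genes were 2.08% and 3.57% in endothelial-gated and 1.68% and 1.88% in macrophage-gated cells.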

How the data were processed

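Deposited files held filtered gene-by-barcode counts of whole UMIs and counts of 198 antibody tags, made with Cell Ranger 6.0.1 per the file headers. The submitters' processing notes also list Cell Ranger 3 and Seurat 3, and the builds mm10 and GRCh38 without roles; whether counting used strand is not given in the sources used here. The members and the gene lists were chosen with earlier results of these data known. The filter took barcodes with 200 or more genes whose mitochondrial share was below 10% (52.1% and 60.4% of barcodes), for 22687435 isotype and 47485251 anti-CD40 UMIs. A cell passed a gate with at least 6 of 14 fibroblast, 6 of 15 endothelial, 4 of 10 mural, 8 of 16 macrophage, 5 of 8 neutrophil, 4 of 8 B, T or NK cell or 3 of 8 dendritic cell markers. These minimums were set after seeing the marker counts, and stromal gates came before leukocyte gates. In the isotype library 13 cells lay 1 or 2 markers under the fibroblast gate and 26 under the endothelial gate, and in the anti-CD40 library 12 and 23. All collagen genes with 10 or more UMIs are named, with other genes from 6 lists. CPM has exact Poisson intervals, ratios have exact conditional binomial intervals and shares Clopper-Pearson intervals, all covering counting error only. A gene was counted in a class with 10 or more UMIs over both libraries. The ratio code was tested on simulated data. For detection, cells were thinned to 1000 UMIs (seed 11), leaving out shallower ones: 6, 7 and 8 isotype and 0, 6 and 9 anti-CD40 cells of the fibroblast, endothelial and macrophage gates. Other filters, gate minimums, clusters and scalings were tried as alternatives. Software was Python 3.11.15, numpy 2.4.6, scipy 1.17.1, pandas 2.3.3, scanpy 1.11.5 and matplotlib 3.10.9.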

Additional observations from a re-analysis of the deposited data

Results flagged for a closer look

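Col6a2, a type VI chain, stood on opposite sides in 2 cell classes. It was 1.93-fold higher with anti-CD40 in the macrophage gate, at 2 UMIs in 716 isotype cells and 18 UMIs in 2237 anti-CD40 cells, and 3.02-fold lower in the fibroblast gate. The difference between the classes was not tested, and the macrophage-gated ratio has an interval that spans 1. With every cell weighted equally, Col6a2 was instead lower in the macrophage gate, at -0.44 on the log2 scale.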

How the results depend on the processing

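Each collagen total of the libraries kept its direction under every alternative run, lower with anti-CD40, in all 3 of the fibroblast, endothelial and macrophage gates. No paired analysis was possible because each treatment had 1 library and no replicate number. With a filter of 500 genes and a mitochondrial share below 5%, collagen was 5764 CPM in anti-CD40 fibroblast-gated cells (log2 ratio -1.10), 2666 and 1045 CPM in endothelial-gated (log2 -1.35) and 78.8 and 28.8 CPM in macrophage-gated cells; with no mitochondrial limit the isotype macrophage gate had 98.2 CPM. With 1 marker fewer, the isotype fibroblast gate had 10815 CPM (log2 -1.01) and the endothelial gate 1238 and 900.3 CPM (log2 -0.46); with 1 marker more the anti-CD40 fibroblast gate had 5566 CPM. Classes from clusters gave anti-CD40 values of 6014 (log2 -1.01) and 1057 CPM for fibroblasts and endothelium. Leaving out stromal cells with 3 or more macrophage markers left 9 and 3 fibroblast-gated cells at 17234 and 10163 CPM (log2 -0.76, 11 of 18 genes lower) and 39 and 14 endothelial-gated cells at 2638 and 2397 CPM (log2 -0.14); Col5a3 (0.0093), Col14a1 (0.068) and endothelial Col4a1 (0.10) and Col15a1 (1.45) then turned above 0. Leaving out those with 8 or more gave 12682 and 7636 CPM (log2 -0.73, 12 of 22 lower, Col18a1 0.039) and 2439 and 1952 CPM (log2 -0.32). With mitochondrial, ribosomal and haemoglobin genes left out of the total, CPM was 14483 and 6415, 2288 and 1162, and 107.4 and 41.1 in the fibroblast, endothelial and macrophage gates. Weighting cells equally gave 11249 and 6441 CPM (log2 -0.80, 13 of 22 lower, Col18a1 0.0059) for fibroblasts, 1497 CPM (log2 -0.48) for anti-CD40 endothelium, and 111.0 and 42.5 CPM for macrophages, where Col6a2 turned below 0 (-0.44). Per marker UMI of the class the log2 ratios were -0.18 (6 of 22 lower) and -0.22, and Col1a2 (0.18), Col4a1 (0.24), Col4a2 (0.25), Col4a4 (0.14), Col5a2 (0.24), Col6a1 (0.031), Col8a1 (0.18) and Col18a1 (0.20) turned above 0. Scaling by the median of ratios gave -1.10 for fibroblasts and -1.21 for macrophages. Shares of cells with any collagen UMI follow depth: not thinned, 93.8% and 92.9% in the endothelial and 39.5% and 26.4% in the macrophage gate; at 2000 UMIs, 97.1% in anti-CD40 fibroblasts, 93.5% and 75.5% in endothelium, and 18.1% and 7.60% in macrophages. Among single genes with 10 or more UMIs in a gate, 398 values stayed within the counting interval of the reported ratio, 67 lay outside it, and 15, those named, crossed 0 from a ratio past 1.5-fold; genes under that fold, such as Col16a1, are not among the 15. Cluster classes and stromal-only settings give no macrophage value. The counts of lower collagen genes in these settings have no share of all genes beside them. The causes of these shifts were not tested.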

Other observations

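Some collagen UMIs lay outside every gate. The 477 isotype and 729 anti-CD40 cells in no gate had medians of 863 and 1276 UMIs. They held 95 and 91 collagen UMIs, at 110.8 CPM (89.6 to 135.4) and 56.6 CPM (45.6 to 69.5). The macrophage gate had 88.97 CPM (81.7 to 96.7) and 33.9 CPM (31.8 to 36.1). The intervals thus overlapped in the isotype library and lay apart in the anti-CD40 library. Col14a1 led in the cells without a gate as well, with 22 and 31 UMIs, and 1 isotype cell gave 18 of the 95. Col9a3, a chain of cartilage type IX collagen whose partners Col9a1 and Col9a2 had no UMI, was found as single UMIs in 15 isotype and 48 anti-CD40 cells, and Col7a1 likewise in 18 and 20 cells.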
